A study of Mus musculus with 6 samples.

Results

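The genes described here are the bone morphogenetic protein (BMP) receptor pathway that is altered in inherited pulmonary arterial hypertension, followed as 10 named genes of the 25428 probe sets on the array. They were chosen by name and comprise the receptor genes Bmpr2, Bmpr1a and Acvrl1, the coreceptor gene Eng, the signal transducers Smad1, Smad5 and Smad9, and the target genes Id1, Id2 and Id3. Each had 1 probe set. The lungs came from adult male mice kept for 7 days at 10% oxygen, and RNA of a whole lung lobe was hybridised to 1 GeneChip Mouse Gene 2.0 ST array per mouse. Hypoxia-exposed Nfat5(SMC)-/- lungs (n = 3) were set against hypoxia-exposed Nfat5fl/fl lungs (n = 3), to ask how the loss of the transcription factor NFAT5 from smooth muscle cells is reflected in the hypoxic lung. Both groups carried the floxed Nfat5 alleles. The floxed line was crossed with SM-MHC-CreERT2, a tamoxifen-inducible Cre recombinase driven by the smooth muscle myosin heavy chain promoter, and the Nfat5(SMC)-/- mice were given tamoxifen. The Nfat5fl/fl controls were given the carrier oil (miglyol), so the effects of tamoxifen and of the deletion cannot be told apart, and whether they carried the Cre construct is not stated. Lung cells in which this promoter is not active keep Nfat5. The mice are numbered 1, 2 and 4 in each group, and normoxic lungs were not analysed here.

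BMP ligands bind a complex of type II and type I receptor kinases. The type II receptor activates the type I receptor, which phosphorylates SMAD1, SMAD5 and SMAD9. These join the common partner SMAD4 and move to the nucleus, where the Id genes are among their best known targets. In the pulmonary artery this pathway restrains the growth of smooth muscle and maintains the endothelium, and loss-of-function variants of BMPR2 are the most frequent cause of heritable pulmonary arterial hypertension in humans.

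Nfat5 itself was read first, as a check of the labels. Its level was 8.23, 7.72 and 7.89 in lungs of Nfat5(SMC)-/- mice 1, 2 and 4, against 9.18, 8.62 and 9.21 in Nfat5fl/fl mice 1, 2 and 4, on the log2 scale of the deposited values. Every Nfat5(SMC)-/- lung lay below every control lung, as was so for 15.0% of all genes. The log2 difference was -1.06 (SE 0.20, adjusted p = 0.0707 by limma), which did not pass the threshold of 0.05. The direction is that of the labels, but this check is weak. Across all genes, 208 of 25428 probe sets passed it, 66 higher and 142 lower in Nfat5(SMC)-/- lungs. On the first principal component of all genes, which took 49.6% of the variance, the lung of Nfat5(SMC)-/- mouse 1 scored 55.8, those of mice 2 and 4 scored 3.57 and 3.12, and control lungs scored -21.6 to -20.1. The lung of Nfat5(SMC)-/- mouse 1 thus stood apart from all others. The arrays were quantile-normalised, so every difference is relative to the other genes of the same array. In whole lung, fewer cells of a type and less RNA per cell cannot be told apart.

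Of the 10 genes, 0 passed the limma test at an adjusted p under 0.05, where the background over all genes was 0.818%. At an unadjusted p under 0.05, Bmpr2, Bmpr1a and Smad5 were lower in Nfat5(SMC)-/- lungs and 0 genes were higher, where 19.3% of all genes were below that p (11.1% lower, 8.19% higher). The groups did not overlap for 4 of the 10 genes, against 26.9% of all genes. Bmpr2, Bmpr1a and Smad5 were lower in every Nfat5(SMC)-/- lung than in any control lung (15.0% of all genes), and Id1 was higher in every one (11.8% of all genes). The median log2 difference of the 10 genes was -0.05, with 4 above and 6 below 0, while the median over all genes was -0.0008. All 10 had a mean level above the median of all probe sets, and Smad9, at percentile 50.4, only just so. Of the 12714 genes above that median, 1980 were higher and 2650 lower without overlap. At an unadjusted p under 0.05 by limma, 1785 of them were higher and 2367 lower. These are larger shares than over all genes. The shares over all genes given here and below include the dimmer genes, and so are low for genes of such levels.

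**Figure D1:**
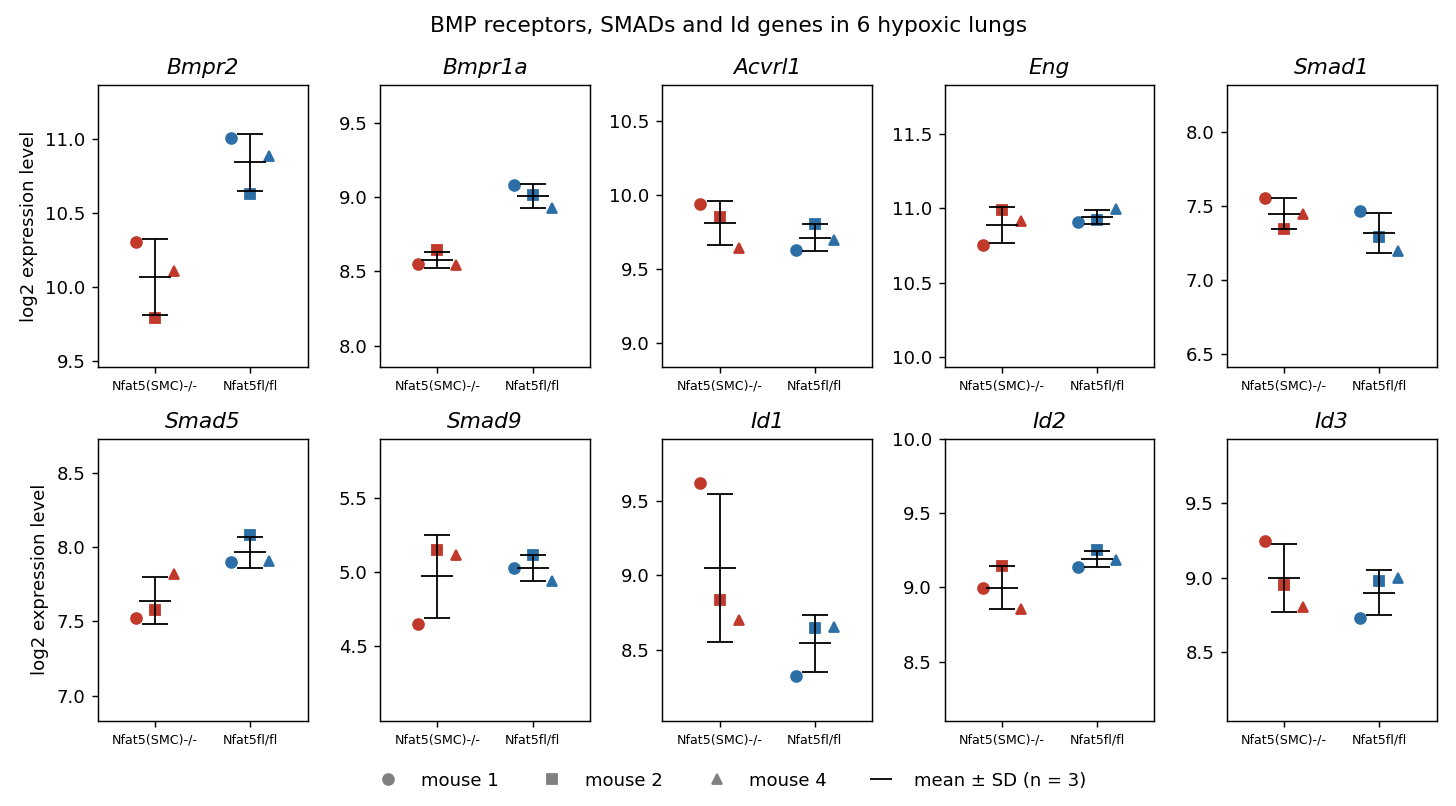
Deposited log2 expression level (vertical axis, same height of scale in each panel) of the 10 genes in each lung, Nfat5(SMC)-/- left and Nfat5fl/fl right, with the mouse number as the symbol and the mean ± SD (n = 3) in black. The 3 Nfat5(SMC)-/- values of Bmpr2 lie between 9.79 and 10.30, below the control values of 10.63 to 11.01, whereas the groups of Acvrl1, Eng, Smad1, Smad9, Id2 and Id3 overlap.

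Promoter sequences are shown for the receptor gene with the largest difference, Bmpr2, and for the target genes Id2 and Id3, since they differ in which SMAD motif they hold. Sequences of the 250 bases before the start were given for 8 of the 10 genes (RefSeq, GRCm38.p6), not for Acvrl1 and Id1. A script searched both strands for the SMAD box CAGAC, the GC-rich element GGCGCC bound by BMP SMADs, and TGGAAA, the core of the tonicity element bound by NFAT5, motifs that do not overlap each other. Capitals mark matches, and CAGAC on the minus strand reads GTCTG. The windows are those of Bmpr2 at chr1:59764029-59764278 on the plus strand, Id2 at chr12:25096093-25096342 on the minus strand and Id3 at chr4:136143572-136143821 on the plus strand, each written 5′ to 3′ along its gene.
Bmpr2: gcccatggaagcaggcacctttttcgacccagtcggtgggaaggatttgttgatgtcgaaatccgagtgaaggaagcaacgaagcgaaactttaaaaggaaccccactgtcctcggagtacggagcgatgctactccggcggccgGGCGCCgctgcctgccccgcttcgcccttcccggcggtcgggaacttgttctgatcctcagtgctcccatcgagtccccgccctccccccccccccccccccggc
Id2: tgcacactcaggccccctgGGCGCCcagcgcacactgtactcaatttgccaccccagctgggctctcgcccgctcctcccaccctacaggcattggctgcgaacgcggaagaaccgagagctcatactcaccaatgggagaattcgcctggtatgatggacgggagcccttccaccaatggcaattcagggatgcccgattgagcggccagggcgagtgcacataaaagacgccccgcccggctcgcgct
Id3: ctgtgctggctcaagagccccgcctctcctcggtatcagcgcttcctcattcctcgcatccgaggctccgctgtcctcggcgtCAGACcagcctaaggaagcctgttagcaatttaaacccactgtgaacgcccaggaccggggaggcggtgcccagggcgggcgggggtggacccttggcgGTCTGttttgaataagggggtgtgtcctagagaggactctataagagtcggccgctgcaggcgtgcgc
GGCGCC was present in a window of 5 of the 8 genes (Bmpr2, Bmpr1a, Smad5, Smad9 and Id2), against 9.59% of 32851 promoter windows. CAGAC was present in 3 (Eng, Smad5 and Id3), against 42.2% of windows, and Id3 held it at both marked places. TGGAAA was found in 0 of the 8, against 18.6% of windows. A gene was counted if any of its windows matched, and Smad5 had 3 windows. The 10 windows of the 8 genes held 60.0 to 78.8% G and C, the only bases of GGCGCC. The base content of all windows was not compared, so these shares do not show that a motif is more or less frequent in these genes. A match is a string of letters, not a bound site, and a window without a match says nothing of the factor.

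Among the receptors, Bmpr2 had the largest difference of the 10 genes. Bmpr2 encodes the type II receptor of the pathway. Its level was 10.30, 9.79 and 10.11 in lungs of Nfat5(SMC)-/- mice 1, 2 and 4, against 11.01, 10.63 and 10.88 in Nfat5fl/fl mice 1, 2 and 4. Mean levels were 10.07 ± 0.26 in Nfat5(SMC)-/- lungs and 10.84 ± 0.19 in controls (SD, n = 3 each). The log2 difference was -0.77 (SE 0.16, 95% confidence interval, CI, of -1.16 to -0.38, not adjusted for the number of genes), a ratio of 0.585, with an adjusted p of 0.0777 by limma. Without Nfat5(SMC)-/- mouse 1 the difference was -0.89 and passed the test (adjusted p = 0.0444). Bmpr2 ranked 864th of all genes by p.

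Bmpr1a, which encodes a type I receptor (ALK3) widely expressed in lung, showed a smaller and tighter difference. Its level was 8.55, 8.64 and 8.54 in Nfat5(SMC)-/- lungs, against 9.08, 9.02 and 8.92 in Nfat5fl/fl lungs. The spread within each group was small, 0.05 in Nfat5(SMC)-/- lungs and 0.08 in controls (SD). The log2 difference was -0.43 (SE 0.07, 95% CI -0.60 to -0.25), a ratio of 0.743, with an adjusted p of 0.058.

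The receptor gene Acvrl1 and the coreceptor gene Eng did not share this pattern. Acvrl1 encodes ALK1, the type I receptor of endothelial cells, and Eng encodes its coreceptor endoglin. Variants of both cause hereditary haemorrhagic telangiectasia. Acvrl1 had levels of 9.94, 9.85 and 9.64 in Nfat5(SMC)-/- lungs and 9.63, 9.81 and 9.70 in Nfat5fl/fl lungs, a log2 difference of 0.10 (95% CI -0.14 to 0.34, adjusted p = 0.64). Eng had levels of 10.76, 10.99 and 10.92 in Nfat5(SMC)-/- lungs and 10.91, 10.92 and 11.00 in Nfat5fl/fl lungs, a difference of -0.05 (95% CI -0.25 to 0.14, adjusted p = 0.772). Both intervals hold 0 and leave out the difference measured for Bmpr2, but the genes were not tested against each other. Without Nfat5(SMC)-/- mouse 1 the difference of Eng had the opposite sign, at 0.01.

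**Figure D2:**
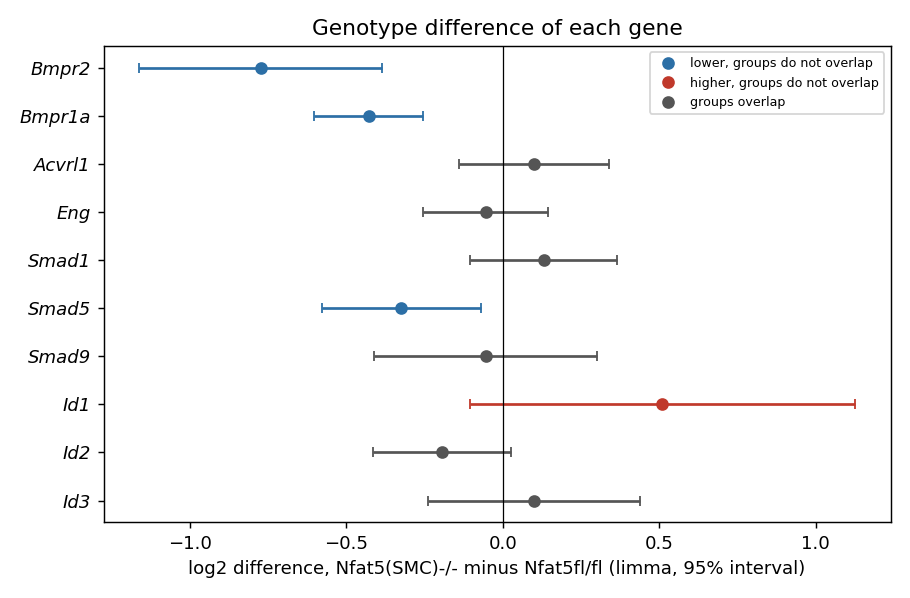
Log2 difference of each of the 10 genes, Nfat5(SMC)-/- minus Nfat5fl/fl (horizontal axis), with its 95% CI from limma (n = 3 per group, not adjusted for the number of genes). Bmpr2 at -0.77, Bmpr1a at -0.43 and Smad5 at -0.32 have intervals below 0, and Id1 at 0.51 has the widest interval, which holds 0.

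Of the receptor-activated SMADs, Smad5 alone had groups that did not overlap. Its level was 7.52, 7.58 and 7.82 in Nfat5(SMC)-/- lungs, against 7.90, 8.08 and 7.91 in Nfat5fl/fl lungs. The nearest lungs, Nfat5(SMC)-/- mouse 4 and control mouse 1, were separated by less than the SD of either group. The log2 difference was -0.32 (SE 0.10, 95% CI -0.58 to -0.07, adjusted p = 0.171), and the ratio was 0.799.

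Smad1 and Smad9 encode the other members of this class. Smad1 had levels of 7.55, 7.34 and 7.45 in Nfat5(SMC)-/- lungs and 7.46, 7.29 and 7.19 in Nfat5fl/fl lungs, a log2 difference of 0.13 (95% CI -0.11 to 0.37, adjusted p = 0.521). Smad9 had levels of 4.65, 5.15 and 5.12 in Nfat5(SMC)-/- lungs and 5.03, 5.11 and 4.94 in Nfat5fl/fl lungs, a difference of -0.05 (95% CI -0.41 to 0.30, adjusted p = 0.881). The low value of mouse 1 set the sign for Smad9, since without that lung the difference was 0.11. Whether Smad5 differed from Smad1 in its response was not tested.

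The Id genes, which encode helix-loop-helix proteins that block the DNA binding of their partners and are read as a measure of BMP signalling, had no common direction. Id1 was higher in every Nfat5(SMC)-/- lung, with 9.62, 8.83 and 8.70, against 8.32, 8.65 and 8.65 in Nfat5fl/fl lungs. Means were 9.05 ± 0.50 in Nfat5(SMC)-/- lungs and 8.54 ± 0.19 in controls (SD, n = 3 each). The high value of Nfat5(SMC)-/- mouse 1 carried much of this: the log2 difference was 0.51 (SE 0.25, 95% CI -0.11 to 1.12, adjusted p = 0.339) with that lung, and 0.22 (adjusted p = 0.377) without it.

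Id2 was at the same time lower in value, with 8.99, 9.14 and 8.86 in Nfat5(SMC)-/- lungs and 9.14, 9.25 and 9.19 in Nfat5fl/fl lungs. In 2 of the 3 Nfat5(SMC)-/- lungs it lay below every control, and the log2 difference was -0.19 (95% CI -0.41 to 0.03, adjusted p = 0.313). Id3 had levels of 9.25, 8.95 and 8.80 in Nfat5(SMC)-/- lungs and 8.72, 8.98 and 9.00 in Nfat5fl/fl lungs, a difference of 0.10 (95% CI -0.24 to 0.44, adjusted p = 0.75). Mouse 1 was again the highest lung, and without it the Id3 difference was -0.03.

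Across the 6 lungs, Id1 and Id3 followed each other (Pearson's r = 0.90 over 6 lungs, and 0.96 after each group's mean was taken off), and so did Acvrl1 and Id3 (r = 0.87, and 0.87 within groups). Bmpr2 and Bmpr1a had r = 0.84 over the 6 lungs, which includes the group difference, and -0.29 within groups. With 3 lungs per group and the small spread of Bmpr1a, the latter cannot show whether the 2 genes followed each other between mice. These values are descriptions over lungs that share an array normalisation and, in part, the lung of mouse 1. Among all other protein-coding genes, the values most like Bmpr2 were those of Slmap (r = 0.999), Pds5b (0.998) and Zfp141 (0.998), and those most like Id1 were Gimap1 (0.998), Prickle4 (0.997) and 4921536K21Rik (0.996).

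The length of the genes moved with these differences. Genes whose mean level lay above the median of all probe sets, sorted by the span of their gene into 10 bins, had a median log2 difference of 0.27 in the shortest bin (median span 1.12 kb) and of -0.25 in the longest (188 kb). Bmpr2 spans 114 kb and Bmpr1a 92.3 kb, and the bin that holds both had a median difference of -0.21 (quartiles -0.43 to 0.01). Id1 spans 1.16 kb and Id2 2.29 kb, both in a bin with a median of 0.27. A trend with span was then fitted over all 25237 probe sets with a span, dim ones included, and taken off. The difference of Bmpr2 was then -0.63 (adjusted p = 0.135), of Bmpr1a -0.29 (adjusted p = 0.128) and of Smad5 -0.26. Id1 was then at 0.42 and Id2 at -0.27 (adjusted p = 0.194). For Bmpr2, Bmpr1a and Id1 this step took off less than the median of their bin. Part of the trend seen among the brighter genes can thus remain in these corrected values. Nfat5, which spans 86.1 kb, was at -0.93 (adjusted p = 0.105) after the same step. The part of RNA quality in this trend was not tested.

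**Figure D3:**
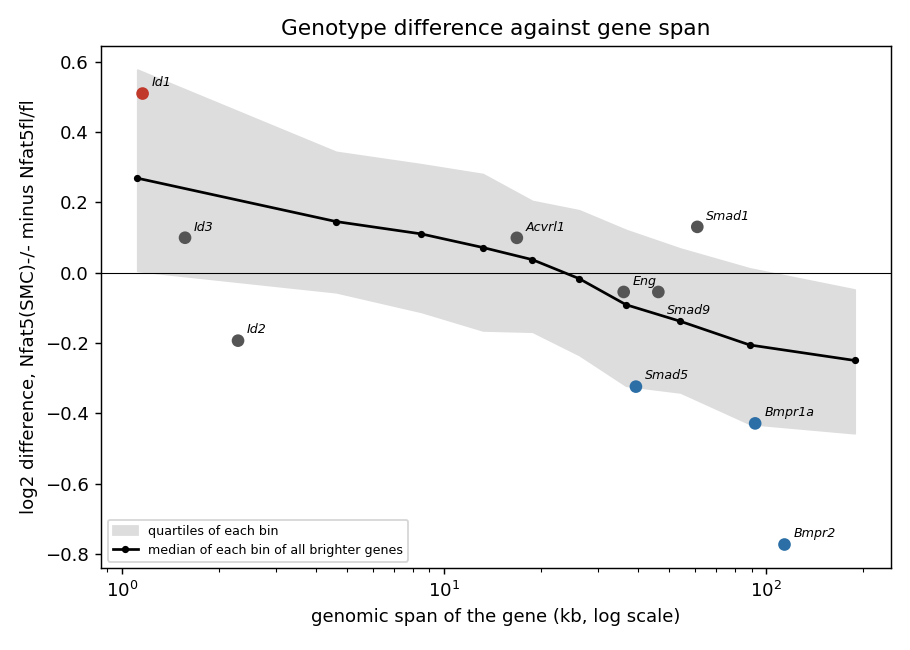
Log2 difference, Nfat5(SMC)-/- minus Nfat5fl/fl (vertical axis), against the span of the gene in kb (horizontal log axis) for the 10 genes, with the median of each of 10 bins of the brighter genes and their quartiles. The bin medians fall across the axis from 0.27 to -0.25. Bmpr2, Smad5 and Id2 lie below the lower quartile of their bins, Smad5 only just, and Smad1 lies above the upper quartile of its bin. Id1 and the other genes lie within the quartiles of their bins, Bmpr1a only just above the lower one.

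Markers of lung cell types were summed up as the mean log2 level of each list in each lung. The 12 endothelial markers lay at 9.85 to 9.98 in Nfat5(SMC)-/- lungs and 9.77 to 10.03 in controls, and the 8 smooth muscle markers at 8.05 to 8.21 in Nfat5(SMC)-/- lungs and 7.94 to 8.34 in controls. For the 8 epithelial markers the ranges were 11.35 to 11.53 in Nfat5(SMC)-/- lungs and 11.30 to 11.53 in controls. For the 7 leukocyte markers they were 7.60 to 7.995 in Nfat5(SMC)-/- lungs and 7.50 to 7.73 in controls. All of these overlap between the groups. The 7 fibroblast markers did not overlap, at 9.39 to 9.45 in Nfat5(SMC)-/- lungs and 9.17 to 9.33 in controls. No marker lay below the lower quartile of all probe sets. The secretory cell gene Scgb1a1 lay at 13.46 to 13.73 and the alveolar gene Sftpc at 13.31 to 13.65 over the 6 lungs, at the top of the scale, where a difference cannot be read.

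The list means cover markers that lay apart in opposite directions. Among the endothelial markers, 3 were lower in every Nfat5(SMC)-/- lung than in any control (15.0% of all genes) and 1 was higher (11.8% of all genes), and 0 passed the test. Tek, an angiopoietin receptor gene, differed by -0.43 (adjusted p = 0.0548, or 0.0361 without Nfat5(SMC)-/- mouse 1). The junction genes Cdh5 and Pecam1 differed by -0.31 (adjusted p = 0.24, and -0.18 without that lung) and -0.22 (adjusted p = 0.194). Sox18, an endothelial transcription factor gene, differed by 0.81 (adjusted p = 0.102). In the other lists, Foxj1, a gene of ciliated cells, differed by 0.66 (adjusted p = 0.166) and Pdgfra, a fibroblast receptor gene, by -0.30 (adjusted p = 0.103), both with groups apart. Pdgfra was the only 1 of the 7 fibroblast markers that was lower. Of the 6 that were higher, 2 had groups apart. Of the 8 epithelial markers, 1 was higher and 1 lower with groups apart. Among the smooth muscle and the leukocyte markers, 1 of each list was higher with groups apart and 0 were lower. The part of these cell types in the differences of the 10 genes was not tested beyond the covariates given here.

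Adipocyte markers differed most. All 10 were higher in Nfat5(SMC)-/- lungs, while 50.3% of all genes were lower. Of the 10, 3 passed the test (0.260% of all genes higher), and 8 had groups that did not overlap (11.8% of all genes higher). The list mean was 7.74, 8.44 and 8.46 in Nfat5(SMC)-/- mice 1, 2 and 4, against 5.99, 6.54 and 5.42 in Nfat5fl/fl mice 1, 2 and 4. Cfd, which encodes adipsin, rose (log2 difference 2.50, adjusted p = 0.0416), a call that was lost when any lung other than Nfat5(SMC)-/- mouse 1 was left out. Fabp4, a fatty acid binding protein gene, differed by 3.04 (adjusted p = 0.0852). With the adipocyte mean as a covariate, the Bmpr2 difference was -0.07 (SE 0.39, adjusted p = 0.953), against -0.77 without it. The covariate did not overlap between the groups, so it and the genotype cannot be separated well, as the larger standard error shows. Under the same covariate Bmpr1a was at -0.59, Smad5 at -0.75 and Id1 at 1.45, each with an adjusted p of 0.558. With the endothelial mean as the covariate, Bmpr2 was at -0.73 and Bmpr1a at -0.43.

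Genes around the receptors were followed in 8 lists by role, 85 genes in all. Of these, 1 rose (Fbln2) and 1 fell (Tet2) past the adjusted threshold, against a background of 0.260% of all genes higher and 0.558% lower. The unadjusted p was under 0.05 for 8 with higher and 21 with lower values, against 8.19% and 11.1% of all genes. The groups did not overlap for 12 genes that were higher and 23 that were lower, against 11.8% and 15.0% of all genes. The median log2 difference of the 85 genes was -0.02.

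**Figure D4:**
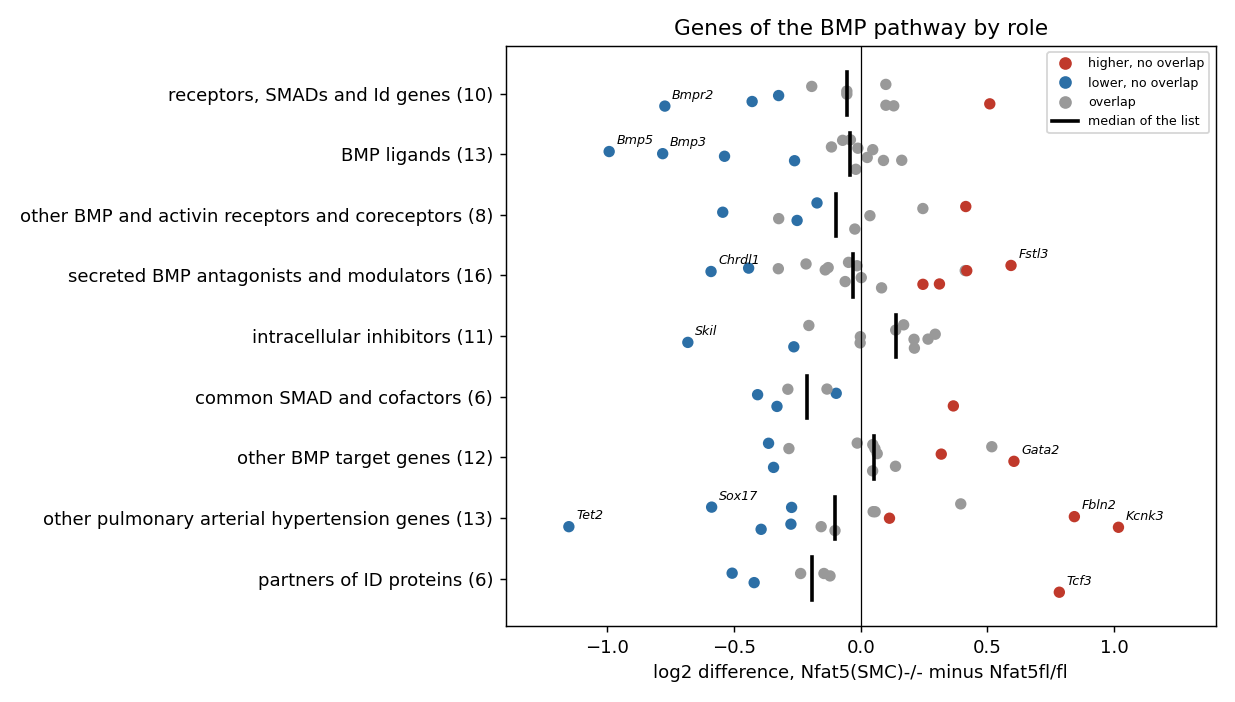
Log2 difference, Nfat5(SMC)-/- minus Nfat5fl/fl (horizontal axis), of each gene in the lists by role (rows, number of genes in brackets), coloured by whether the 3 lungs of each group overlap, with the list median as a bar. Genes whose groups do not overlap lie on both sides in most lists, and only on the lower side among the ligands and the intracellular inhibitors. Of all genes shown, Tet2 at -1.15 and Bmp5 at -0.99 are lowest and Kcnk3 at 1.02 is highest.

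Of 13 BMP ligand genes, 4 were higher and 9 lower in value, with a median of -0.04, and 0 passed the test. The 4 ligand genes whose groups did not overlap were all lower (15.0% of all genes): Bmp5, Bmp3, Bmp4 and Bmp8a. Bmp5 had levels of 8.44, 8.20 and 8.25 in Nfat5(SMC)-/- lungs, against 9.58, 9.04 and 9.24 in Nfat5fl/fl lungs, a log2 difference of -0.99 (adjusted p = 0.0518). Bmp3, which encodes a member of the family that opposes BMP signals, differed by -0.78 (adjusted p = 0.0927). Bmp4, a ligand of BMPR1A, had levels of 8.29, 8.83 and 9.10 in Nfat5(SMC)-/- lungs, against 9.22, 9.36 and 9.25 in Nfat5fl/fl lungs, a difference of -0.54 (adjusted p = 0.222), or -0.31 without Nfat5(SMC)-/- mouse 1. Gdf2, which encodes BMP9, the circulating ligand of ALK1, differed by 0.09 (adjusted p = 0.752), and Bmp10 by -0.01 (adjusted p = 0.959).

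The 8 further receptor and coreceptor genes had a median of -0.10, and 0 passed the test. Acvr2a, another type II receptor gene, differed by -0.54 (adjusted p = 0.154), with 7.78, 7.15 and 7.34 in Nfat5(SMC)-/- lungs and 8.05, 7.93 and 7.92 in Nfat5fl/fl lungs. The type I receptor genes Bmpr1b and Acvr1 differed by -0.25 (adjusted p = 0.253) and -0.17 (adjusted p = 0.388), and without Nfat5(SMC)-/- mouse 1 by -0.16 and -0.0811. In the opposite direction, Rgma, a BMP coreceptor gene, had 7.09, 6.94 and 6.94 in Nfat5(SMC)-/- lungs and 6.33, 6.63 and 6.77 in Nfat5fl/fl lungs (difference 0.41, adjusted p = 0.152). The groups did not overlap for these 4 genes (15.0% of all genes lower without overlap, 11.8% higher). After the span correction Acvr2a was at -0.41, Bmpr1b at -0.07, Acvr1 at -0.02 and Rgma at 0.49.

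The 16 secreted antagonists and modulators had a median of -0.03, with 7 higher, 9 lower and 0 past the test. Fstl3, which encodes a follistatin-like protein that binds activin, had 7.89, 7.74 and 7.60 in Nfat5(SMC)-/- lungs, against 6.99, 7.21 and 7.25 in Nfat5fl/fl lungs (difference 0.59, adjusted p = 0.0657). Nbl1, which encodes a BMP antagonist of the DAN family, had 9.48, 9.40 and 9.28 in Nfat5(SMC)-/- lungs, against 8.85, 9.02 and 9.04 in Nfat5fl/fl lungs (difference 0.42, adjusted p = 0.0819). The groups of both were apart (11.8% of all genes higher without overlap). Chrdl1 and Bmper, whose products bind BMPs outside the cell, differed by -0.59 (adjusted p = 0.2) and -0.44 (adjusted p = 0.176), and without Nfat5(SMC)-/- mouse 1 by -0.36 and -0.28. After the span correction, with all lungs, they were at -0.45 and -0.27.

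Inside the cell, 11 inhibitor genes had a median of 0.14, with 6 higher, 5 lower and 0 past the test. Skil, which encodes the SMAD corepressor SnoN, had 5.51, 5.38 and 5.70 in Nfat5(SMC)-/- lungs, against 6.31, 6.02 and 6.31 in Nfat5fl/fl lungs (difference -0.68, adjusted p = 0.0649). Smad6 and Smad7, inhibitory SMADs that BMP signals themselves induce, differed by 0.21 (adjusted p = 0.581) and -0.20 (adjusted p = 0.677), with overlapping groups. Of 6 genes for the common SMAD and nuclear cofactors the median was -0.21. The coactivator gene Crebbp differed by -0.33 (adjusted p = 0.114) and Zfp423, which encodes a zinc finger partner of SMADs, by 0.37 (adjusted p = 0.119). After the span correction Crebbp was at -0.18 and Zfp423 at 0.54. Smad4 was close to level, at -0.10 (adjusted p = 0.458).

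The 12 other BMP target genes had a median of 0.05, with 8 higher, 4 lower and 0 past the test. Tmem100, a target of ALK1 signalling in the arterial endothelium, had 10.41, 10.51 and 10.43 in Nfat5(SMC)-/- lungs, against 10.80, 10.86 and 10.78 in Nfat5fl/fl lungs, a log2 difference of -0.36 (adjusted p = 0.0616). Gata2, a transcription factor gene of blood and endothelial cells, had 8.80, 8.54 and 8.46 in Nfat5(SMC)-/- lungs, against 7.82, 8.23 and 7.93 in Nfat5fl/fl lungs, a difference of 0.60 (adjusted p = 0.0951). The target genes thus held members that lay apart in both directions (15.0% of all genes lower without overlap, 11.8% higher).

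**Figure D5:**
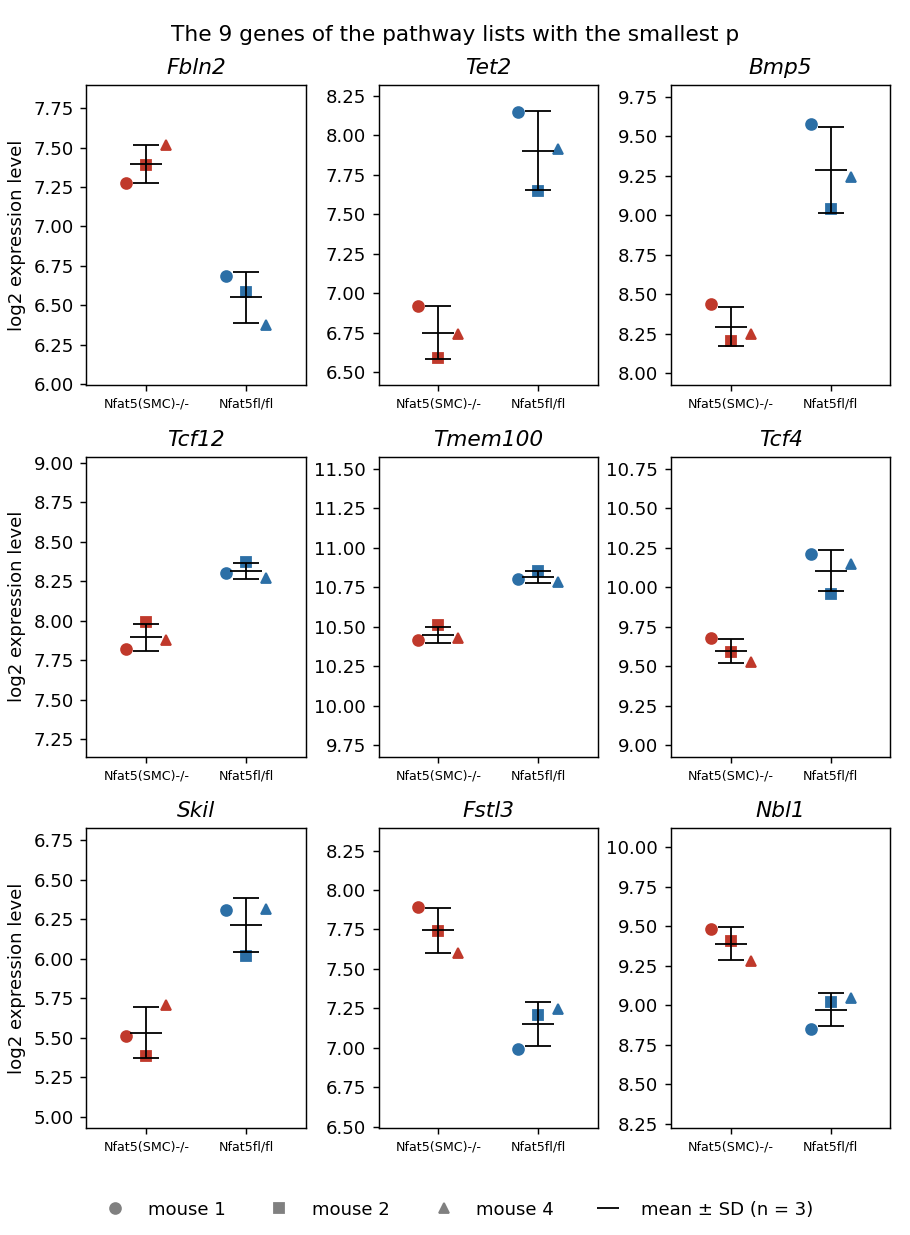
Deposited log2 expression level (vertical axis, same height of scale in each panel) in each lung, Nfat5(SMC)-/- left and Nfat5fl/fl right, of the 9 genes of the 8 lists with the smallest p, with the mean ± SD (n = 3) in black. These genes were picked by their p, so the separation of the groups, such as Bmp5 at 8.20 to 8.44 in Nfat5(SMC)-/- lungs and 9.04 to 9.58 in Nfat5fl/fl lungs, is a description.

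Among 13 other genes tied to pulmonary arterial hypertension, the median was -0.10 and 2 passed the test (0.818% of all genes). Fbln2, which encodes the extracellular matrix protein fibulin-2, rose, with 7.27, 7.39 and 7.52 in Nfat5(SMC)-/- lungs, against 6.69, 6.59 and 6.38 in Nfat5fl/fl lungs (log2 difference 0.84, adjusted p = 0.0425). Tet2, which encodes an enzyme that oxidises methylcytosine, fell, with 6.92, 6.59 and 6.74 in Nfat5(SMC)-/- lungs, against 8.15, 7.65 and 7.91 in Nfat5fl/fl lungs (difference -1.15, adjusted p = 0.0435). Both calls were lost when any lung other than Nfat5(SMC)-/- mouse 1 was left out. Kcnk3, which encodes the potassium channel TASK-1, had 7.39, 6.51 and 6.39 in Nfat5(SMC)-/- lungs, against 5.68, 5.98 and 5.57 in Nfat5fl/fl lungs (difference 1.02, adjusted p = 0.127). Sox17, an endothelial transcription factor gene, differed by -0.59 (adjusted p = 0.203), or -0.37 without Nfat5(SMC)-/- mouse 4.

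The last list holds 6 genes for partners of the ID proteins, with a median of -0.19 and 0 past the test. Tcf3, Tcf4 and Tcf12 encode the E proteins that ID proteins sequester. Tcf3 had 8.60, 7.995 and 7.76 in Nfat5(SMC)-/- lungs, against 7.06, 7.62 and 7.32 in Nfat5fl/fl lungs, a difference of 0.78 (adjusted p = 0.165). Tcf4 and Tcf12 lay the other way, at -0.51 (adjusted p = 0.0636) and -0.42 (adjusted p = 0.0606). The groups of all 3 were apart (11.8% of all genes higher without overlap, 15.0% lower). After the span correction Tcf3 was at 0.80, Tcf4 at -0.33 and Tcf12 at -0.25.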

How the data were processed

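RNA of 6 hypoxic lungs (3 Nfat5(SMC)-/- and 3 Nfat5fl/fl) was measured on 1 array each. The deposited values are log2 expression levels, made by the authors by quantile normalization with a custom chip definition of Entrez genes. The submitters' processing notes name RMA. Its version was not given in the sources used here. The 6 sorted columns differed from their mean by at most 0.0015, and 0 pairs of arrays held identical values. No per-array depth applies, and the number of arrays limits the precision. P-values measure the spread between these mice.

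The genotypes were compared by two-sided moderated tests (limma 3.58.1, R 4.3.3). P-values were adjusted by the Benjamini-Hochberg method across the 25428 probe sets, and 0.05 was the threshold. The script was tested on simulated data. Exact permutation tests were not used, since the 20 groupings of 3 against 3 lungs allow no p under 0.1.

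The members, gene lists and tests were chosen with earlier results of these data known. Named are the 10 genes, Nfat5, in each list the up to 2 genes of smallest p in each direction, the 2 markers of the highest mean level per cell type, and the 3 genes most like Bmpr2 and Id1. Bmp4, Bmp8a, Bmp10, Acvr1, Smad4, Smad6, Smad7, Sox17, Tek, Sox18 and Foxj1 were named after their values were seen. A further gene that this rule would name is not reported here. Alternatives tried were other tests and priors, array weights, cyclic loess, level filters, a replicate block, a correction for gene span, cell type covariates and leaving out lungs. Promoter windows came from RefSeq (GRCm38.p6).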

Additional observations from a re-analysis of the deposited data

How the results depend on the processing

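Under the 18 alternatives, Bmpr2 and Bmpr1a stayed lower, with log2 differences of -0.996 to -0.07 and -0.59 to -0.29, and so did Smad5 (-0.75 to -0.20), while Id1 stayed higher (0.22 to 1.45). Genes called over all probe sets numbered 208 as reported, 0 by the methods' t-test (3951 at an unadjusted p under 0.05) and 2 with a mean-dependent prior. They numbered 3263 with array weights, 1 after cyclic loess, 112 among probe sets above the median level and 41 after the gene span correction. With the endothelial or the adipocyte covariate, 0 were called (4439 and 2044 at an unadjusted p under 0.05). With the lungs of Nfat5(SMC)-/- mouse 1 and Nfat5fl/fl mouse 2 both left out, 1452 were called. On the first principal component only the former stood apart, and the latter, at -20.8, lay within the control range. Leaving out 1 lung gave 0 to 980, with 980 without Nfat5(SMC)-/- mouse 1 and 0 without each of the others (3177 to 5280 at an unadjusted p under 0.05). The number of the 10 genes called was 0 as reported, 2 with array weights (Bmpr2 at -0.93, adjusted p = 0.0095, and Bmpr1a at -0.37, adjusted p = 0.0183), 1 with those 2 lungs left out (Bmpr2 at -0.996, adjusted p = 0.0352), 0 to 1 with 1 lung left out (1, Bmpr2, without Nfat5(SMC)-/- mouse 1), and 0 otherwise.

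With the mouse number as a replicate block, 0 genes were called (4994 at an unadjusted p under 0.05). Bmpr2 was then at -0.77 (adjusted p = 0.0977), with an SE of 0.07, against 0.16 without the block. The labels do not say whether the numbers pair the mice, and they were not taken to do so. Same-numbered lungs correlated at 0.078 to 0.41 about their group means, and lungs of different number at -0.33 to 0.145. Nfat5(SMC)-/- mouse 4 correlated best with Nfat5fl/fl mouse 1 (0.145). These values cannot decide whether the mice were paired.

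Over 64 named genes, 1035 values under the alternatives kept their direction and their side of the threshold, 49 came to pass it, 35 no longer passed it, and 28 changed sign. With array weights Smad9 was at 0.12, Id3 at -0.0324 and Gdf2 at -0.0539, and after cyclic loess Scgb1a1, at the top of the scale, was at 0.0039. After the span correction Eng was at 0.0021, Smad9 at 0.0266 and Smad4 at 0.0206. With the adipocyte covariate Nfat5 was at 0.16, Bmp3 at 0.26, Acvr2a at 0.0111, Bambi at -0.0824, Tob1 at -0.75, Acta2 at 0.34, Fabp4 at -1.17, Cd68 at -0.20, Bmp10 at 0.0830 and Smad7 at 0.17. With 1 lung left out, Eng ranged over -0.106 to 0.0112, Smad9 over -0.142 to 0.106, Id3 over -0.0251 to 0.199, Gdf2 over -0.0318 to 0.205, Bmp10 over -0.0564 to 0.0301 and Smad7 over -0.360 to 0.0635. Without those 2 lungs Eng was at 0.0011, Smad9 at 0.15, Gdf2 at -0.0198 and Hjv at -0.0508. The cause was not tested.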
